A study of Mus musculus with 8 samples.

Results

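CJ7 mouse embryonic stem (ES) cells with Sall4 depleted and 1 of its isoforms supplied from a cDNA were compared with depleted cells that received no isoform. The former are called add-back cells here, and the labels do not say whether the cDNA or the depletion came first. The comparison pools 4 add-back arrays against 2 depleted arrays, 6 of the 8 arrays of the study. The 2 control arrays show where each gene lay without depletion. Members were chosen by their sample labels. Sall4a-only cells (2 arrays) carried a short hairpin RNA (shRNA) against both Sall4 isoforms and a Sall4a cDNA that the shRNA does not target. Sall4b-only cells (2 arrays) carried the same kind of shRNA virus with a Sall4b cDNA of that kind. Depleted cells (2 arrays) carried the shRNA and no cDNA, and control cells (2 arrays) carried a lentivirus without shRNA. All groups were infected with concentrated virus for 24 hours with polybrene at 2.5 mcg/mL, then kept in medium with leukaemia inhibitory factor (LIF) and puromycin at 2 mcg/mL, and were collected 48 hours after infection. No source used here states which promoter drives the cDNAs. The labels call arrays of a group biological replicates and say nothing of separate cultures. The p-values therefore reflect only how far these arrays differed, and part of that spread may be technical.

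Sall4 is a zinc-finger transcription factor of the spalt family that ES cells express at a high level. It binds AT-rich DNA and recruits the NuRD complex, a repressor that removes acetyl groups from histones. Sall4b is a shorter splice form that lacks an internal stretch of Sall4a. ES cells with little Sall4 are known to drift toward trophoblast and other lineages, and add-back of an isoform is a common way to ask what each form can restore.

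Sall4 RNA itself was not higher in add-back cells than in depleted cells. Its brighter probe set read 9140 and 9044 intensity units in Sall4a-only cells, 9567 and 9923 in Sall4b-only cells, 10489 and 10332 in depleted cells, and 15077 and 13778 in control cells. All 4 add-back arrays lay below both depleted arrays, and control lay above every other array. The pooled log2 difference between add-back and depleted cells was −0.15 (SE 0.098), with an adjusted p of 0.693 over all probe sets (limma, Benjamini-Hochberg). Control minus depleted was 0.47 on the log2 scale, which did not pass either (adjusted p = 0.462 over all probe sets). The dimmer probe set read 152 and 158 in Sall4a-only cells, 211 and 144 in Sall4b-only cells, 137 and 156 in depleted cells, and 362 and 334 in control cells. Here the add-back and depleted arrays overlapped. Where in the transcript these probes lie was not used here, so whether they can read the add-back cDNAs is unknown and they do not check the add-back labels. Groups are named by their labels throughout.

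All 10 ES cell markers were called present on every array, with summed intensities between 80622 and 102890 on the add-back arrays, 90617 and 87876 on the depleted arrays, and 94268 and 75682 on the control arrays. The 2 Sall4a-only arrays stood further apart than any other replicate pair. The SD over genes of their log2 difference was 0.62, against 0.28 in Sall4b-only, 0.27 in depleted and 0.41 in control cells. In all, 1160 genes differed by more than 1 log2 unit between the Sall4a-only replicates, and 133 between the Sall4b-only replicates.

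In add-back cells 8 of 14027 genes passed an adjusted p of 0.05, 7 lower and 1 higher than in depleted cells. That is 0.057% of the genes tested (0.0499% lower and 0.00713% higher), and 1196 genes had an unadjusted p under 0.05. The median over all genes was 0.052 on the log2 scale. Of the 7 that fell, Prl3a1, P2ry10b and Prr32 reached the control level, Dynap, Pla2g4a and Parm1 went past it, and Hmga2-ps1 moved away from it. For Prl3a1 and Prr32 the match to control rests largely on values without a present call. Of Dynap, Pla2g4a and Parm1, only Dynap passed the threshold against control. Lemd1, the gene that rose, was at the same low level in control as in depleted cells. Signed differences below are add-back minus depleted cells on the log2 scale unless another pair is named. Words such as fell, rose, reached or returned describe differences between groups, not changes followed over time. The 4 add-back arrays were treated as 1 group, so a difference between the isoforms counts as spread.

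Among the genes past the threshold whose levels returned to control, Prl3a1, a prolactin-family hormone gene of the placenta, differed most. It read 4.22 and 4.34 log2 units in Sall4a-only cells, 4.47 and 4.20 in Sall4b-only cells, 7.36 and 6.74 in depleted cells, and 4.74 and 4.27 in control cells. It was called present on no add-back array and on 1 control array. Its RNA was at least 6.70-fold lower on the add-back arrays than in depleted cells (−2.74, SE 0.21, adjusted p = 0.0113). P2ry10b, a gene of the P2Y group of G protein-coupled receptors, read 4.06 and 4.48 in Sall4a-only, 4.43 and 4.24 in Sall4b-only, 7.26 and 6.79 in depleted, and 4.48 and 4.47 in control cells. It fell 6.60-fold (−2.72, SE 0.17, adjusted p = 0.00499), which is 107% of the gap between depleted and control cells. Only 1 add-back array called it present, so the fold and the percentage rest largely on values without a present call. It was also 1 of the 2 genes that differed between control and depleted cells (0.0143% of genes, adjusted p = 0.0355), the other being Mmp12. Prr32, a proline-rich protein gene, read 3.96 and 4.28 in Sall4a-only, 4.39 and 3.87 in Sall4b-only, 6.37 and 6.10 in depleted, and 4.29 and 4.15 in control cells. It was called present on the depleted arrays and on no other array, and was at least 4.31-fold lower in add-back cells (−2.11, SE 0.17, adjusted p = 0.0162). Prr32 therefore met the filter of present calls on at least 2 arrays only through the group where it was high. Its match to control sets side by side 2 groups without a present call. In all of these genes the depleted arrays stood alone above the other 6 arrays.

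Dynap and Pla2g4a fell below control as well as below depleted cells. Dynap, which encodes a membrane protein that binds dynactin, read 3.85 and 4.49 in Sall4a-only, 4.59 and 4.26 in Sall4b-only, 7.55 and 7.62 in depleted, and 7.10 and 7.10 in control cells. No add-back array called it present. It was at least 9.77-fold lower than in depleted cells (−3.29, SE 0.20, adjusted p = 0.00499) and at least 7.01-fold lower than in control cells (add-back minus control −2.81, adjusted p = 0.00802). Pla2g4a, the cytosolic phospholipase A2 that releases arachidonic acid from membranes, read 6.94 and 7.52 in Sall4a-only, 6.90 and 7.61 in Sall4b-only, 10.06 and 9.79 in depleted, and 9.21 and 9.07 in control cells. It fell 6.42-fold (−2.68, SE 0.23, adjusted p = 0.0193), and the difference from control, −1.90, did not pass (adjusted p = 0.0739). Parm1, a transmembrane mucin-like protein gene, averaged 11.20 ± 0.14 in add-back cells (SD, n = 4) and 12.65 ± 0.028 in depleted cells (SD, n = 2), with 12.22 and 11.89 in control. It fell 2.74-fold (−1.46, SE 0.13, adjusted p = 0.0221), and a second Parm1 probe set gave −1.40 (adjusted p = 0.0346 over all probe sets). The difference of Parm1 from control, −0.86, did not pass (adjusted p = 0.103). The add-back arrays of these 3 genes lay below every depleted and control array.

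Hmga2-ps1 and Lemd1 showed no return toward control. Hmga2-ps1, by its symbol a pseudogene of the chromatin gene Hmga2, read 6.01 and 6.61 in Sall4a-only, 6.16 and 6.77 in Sall4b-only, 8.62 and 8.47 in depleted, and 8.96 and 8.90 in control cells. It fell 4.47-fold against depleted cells (−2.16, SE 0.22, adjusted p = 0.0341) and 5.82-fold against control (−2.54, adjusted p = 0.018). RNA of Hmga2 could bind the same probes, so the gene is uncertain. The probe set of Hmga2 itself read 11.64 and 12.08 in Sall4a-only, 11.35 and 11.74 in Sall4b-only, 12.94 and 12.89 in depleted, and 12.51 and 12.19 in control cells (−1.21, adjusted p = 0.156). Lemd1, whose human counterpart is known as a testis gene that some tumours express, read 7.74 and 8.09 in Sall4a-only, 7.90 and 7.98 in Sall4b-only, 6.52 and 6.78 in depleted, and 6.52 and 6.45 in control cells. It rose 2.43-fold (1.28, SE 0.13, adjusted p = 0.0341) and was 2.72-fold higher than in control (1.45, adjusted p = 0.0189). All 4 add-back arrays were above the other 4.

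**Figure D1:**
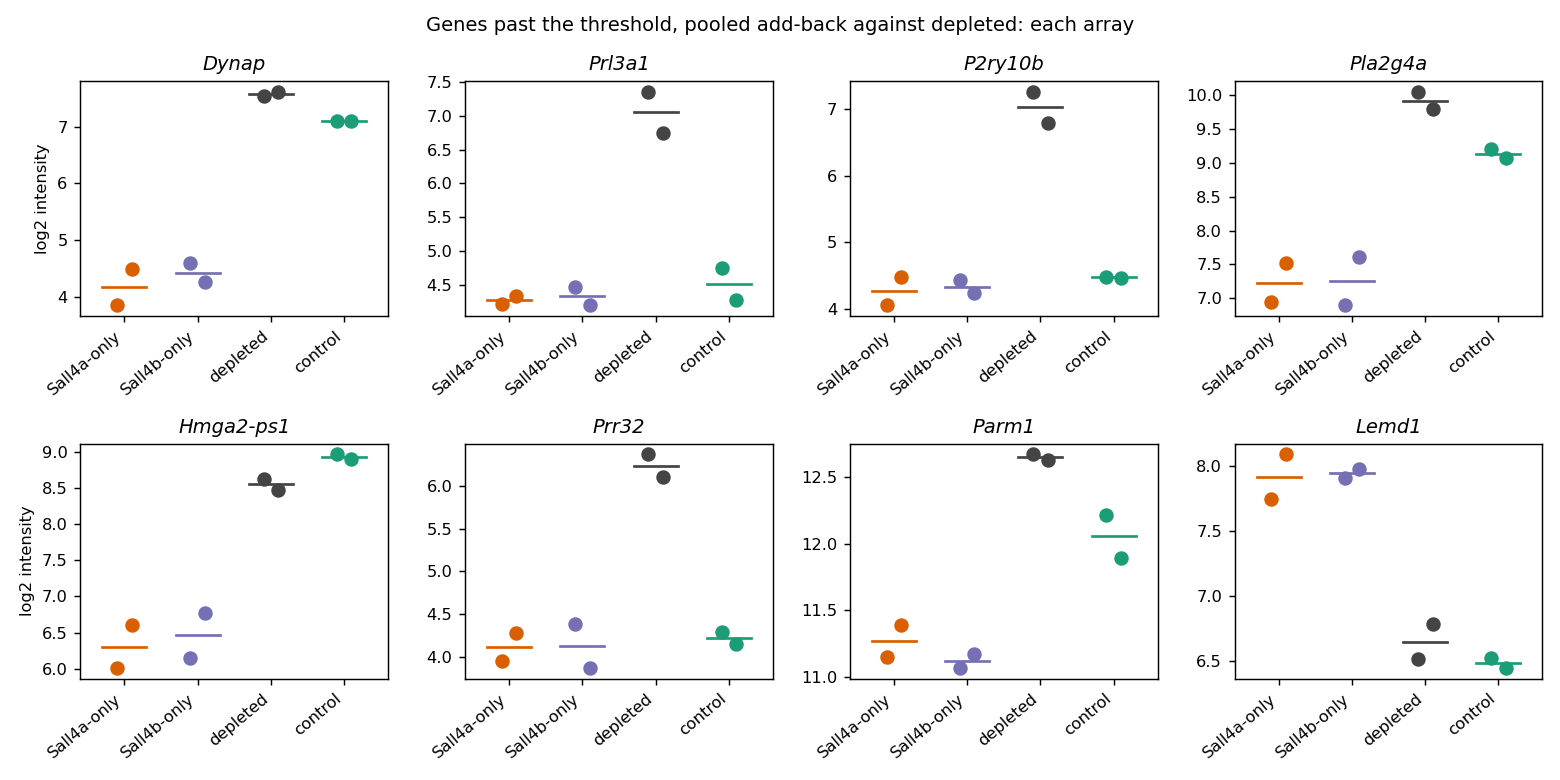
Log2 intensity of the 8 genes past the threshold on each array, with points for arrays and lines for the mean of 2 arrays, in Sall4a-only, Sall4b-only, depleted and control cells. The add-back arrays of Dynap sit between 3.85 and 4.59, below depleted and control, while those of Prl3a1, P2ry10b and Prr32 sit at control level. The vertical axes differ between panels and do not start at 0.

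These calls rest on few arrays and on the model. Fitting the isoforms as separate means left 2 genes, fitting the compared groups alone 5, quantile normalization 20 and array weights 233, of which 78 were higher. Without depleted replicate 1 no gene passed limma's test (599 had an unadjusted p under 0.05), without Sall4b-only replicate 1 the count was 4, without either control array it was 5, and without Sall4a-only replicate 2 it was 86, of which 80 were lower. Dynap and P2ry10b passed in 7 of the 8 fits that left out 1 array and Prl3a1 in 7 of 8, against 4 for Prr32, 3 each for Pla2g4a, Parm1 and Hmga2-ps1, and 2 for Lemd1.

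The promoters of the 3 genes that returned to control, and of the gene that rose, are shown because Sall4 is known to bind AT-rich DNA. The sequences are the 250 bases before the transcription start on the gene's own strand, 5′ to 3′, from RefSeq on GRCm38.p6, and the first listed start was taken where there were several. Capitals mark ATATT on either strand, so ATATT or AATAT, and overlapping matches run together.
Prl3a1, chr13:27259239-27259488, plus strand: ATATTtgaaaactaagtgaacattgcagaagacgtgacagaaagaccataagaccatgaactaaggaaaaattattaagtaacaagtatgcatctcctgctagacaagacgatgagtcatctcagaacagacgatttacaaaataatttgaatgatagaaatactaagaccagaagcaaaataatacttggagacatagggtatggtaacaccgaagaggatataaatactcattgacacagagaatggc
P2ry10b, chrX:107148677-107148926, plus strand: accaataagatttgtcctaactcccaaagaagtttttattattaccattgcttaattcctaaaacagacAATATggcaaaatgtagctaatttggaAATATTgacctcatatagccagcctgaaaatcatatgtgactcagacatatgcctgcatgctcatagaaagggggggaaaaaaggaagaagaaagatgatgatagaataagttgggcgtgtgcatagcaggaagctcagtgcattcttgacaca
Prr32, chrX:45090654-45090903, plus strand: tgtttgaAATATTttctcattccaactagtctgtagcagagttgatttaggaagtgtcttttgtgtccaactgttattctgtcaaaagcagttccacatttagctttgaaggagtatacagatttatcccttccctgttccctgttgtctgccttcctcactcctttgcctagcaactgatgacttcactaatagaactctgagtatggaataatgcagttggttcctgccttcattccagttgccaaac
Lemd1, chr1:132226064-132226313, plus strand: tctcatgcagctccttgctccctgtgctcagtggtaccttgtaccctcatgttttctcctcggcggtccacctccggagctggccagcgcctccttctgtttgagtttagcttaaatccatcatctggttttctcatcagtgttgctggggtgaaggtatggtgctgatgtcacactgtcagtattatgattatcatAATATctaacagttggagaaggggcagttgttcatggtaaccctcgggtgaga
P2ry10b had 3 matches, Prr32 had 2, and Prl3a1 and Lemd1 had 1 each. The upstream window of Pla2g4a held 3 matches and that of Parm1 held 0. ATATT stood in 12.8% of the 11286 promoters matched to tested genes, in 25.7% of the 144 matched promoters of the 194 genes that were lower on all add-back arrays by the rule given next, and in 13.8% of the 29 matched promoters of the 45 that were higher. The median GC content of these windows was 59.6%, 53.8% and 60.8% in that order, and the part of GC content in the shares was not tested. A match is a run of letters and not a measured binding site.

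A wider set of genes was shared by all 4 add-back arrays, defined as no overlap with either depleted array and a pooled log2 difference of at least 1. There were 239 such genes, 1.7% of those tested, with 194 lower (1.38%) and 45 higher (0.321%) in add-back cells. No overlap alone, with no limit on size, held for 946 genes lower (6.74%) and 2056 higher (14.7%), so the direction of the balance depends on the size limit. Just inside the limit were Aox3 at −1.001 and Fxyd2 at 1.002, and just outside it, among the genes of the lists described here, was Fgfbp1 at −0.996. The median difference was −1.45 over the 194 and 1.28 over the 45. Against control, the medians of add-back minus control were −0.93 and 0.94. Being chosen by size, these medians and counts carry no test.

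Apart from the genes past the threshold, the largest negative differences were those of Actg2, Sprr2k, Col3a1, Aldh1a7 and Cav1, none of which passed. Actg2, the smooth-muscle gamma actin, read 5.58 and 9.32 in Sall4a-only, 8.59 and 7.23 in Sall4b-only, 13.37 and 12.50 in depleted, and 11.17 and 9.70 in control cells (−5.26, SE 1.00, adjusted p = 0.215). The add-back arrays were widely spread and still lay below control. Sprr2k, a small proline-rich protein of the cornified envelope, read 7.32 and 10.05 in Sall4a-only, 8.68 and 8.11 in Sall4b-only, 12.77 and 12.44 in depleted, and 9.42 and 9.57 in control cells (−4.06, adjusted p = 0.156). Col3a1, a fibrillar collagen, read 5.64 and 8.55 in Sall4a-only, 7.10 and 7.30 in Sall4b-only, 11.27 and 10.94 in depleted, and 10.78 and 10.01 in control cells (−3.96, adjusted p = 0.179). Sprr2k add-back arrays straddled control, whereas those of Col3a1 were all below it. Aldh1a7, an aldehyde dehydrogenase gene, gave −3.40 (adjusted p = 0.102) with add-back arrays between 4.48 and 6.46 against 8.89 and 8.82 in depleted cells. Cav1, the coat protein of caveolae, gave −3.30 (adjusted p = 0.45), and its Sall4a-only replicates, 6.68 and 11.00, were the lowest and the highest of the add-back arrays.

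None of the largest positive differences passed the threshold, and Lemd1 was smaller than these. Pdlim4, which binds actin filaments, read 9.43 and 11.72 in Sall4a-only, 11.62 and 12.02 in Sall4b-only, 8.72 and 8.66 in depleted, and 9.53 and 8.92 in control cells (2.51, adjusted p = 0.405). Sall4a-only replicate 1 was at the control level and the other 3 add-back arrays were above it. Proser2 read 8.39 and 8.05 in Sall4a-only, 7.41 and 7.29 in Sall4b-only, 5.30 and 5.85 in depleted, and 5.38 and 5.78 in control cells (2.21, adjusted p = 0.143). Igfbp5, which binds insulin-like growth factors, read 11.40 and 12.85 in Sall4a-only, 12.88 and 13.38 in Sall4b-only, 10.88 and 10.32 in depleted, and 11.32 and 10.78 in control cells (2.03, adjusted p = 0.38). In both genes every add-back array was above all depleted and control arrays. Dlx3, a homeobox gene of trophoblast and skin, read 10.59 and 10.98 in Sall4a-only, 9.68 and 9.70 in Sall4b-only, 8.08 and 8.51 in depleted, and 9.15 and 9.44 in control cells (1.94, adjusted p = 0.251). Both depleted arrays of Dlx3 lay below both control arrays, and all 4 add-back arrays lay above control. The other leading positive differences were Gpm6a (2.18), Myh2 (2.08), Bdkrb2 (1.89), Prkcb (1.83), Efhd1 (1.78), Bmp7 (1.76) and Atg9b (1.59), with adjusted p between 0.42 and 0.552. Myh2 and Bmp7 were called present on no depleted or control array, so they met the presence filter only through the add-back arrays, where they were high.

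**Figure D2:**
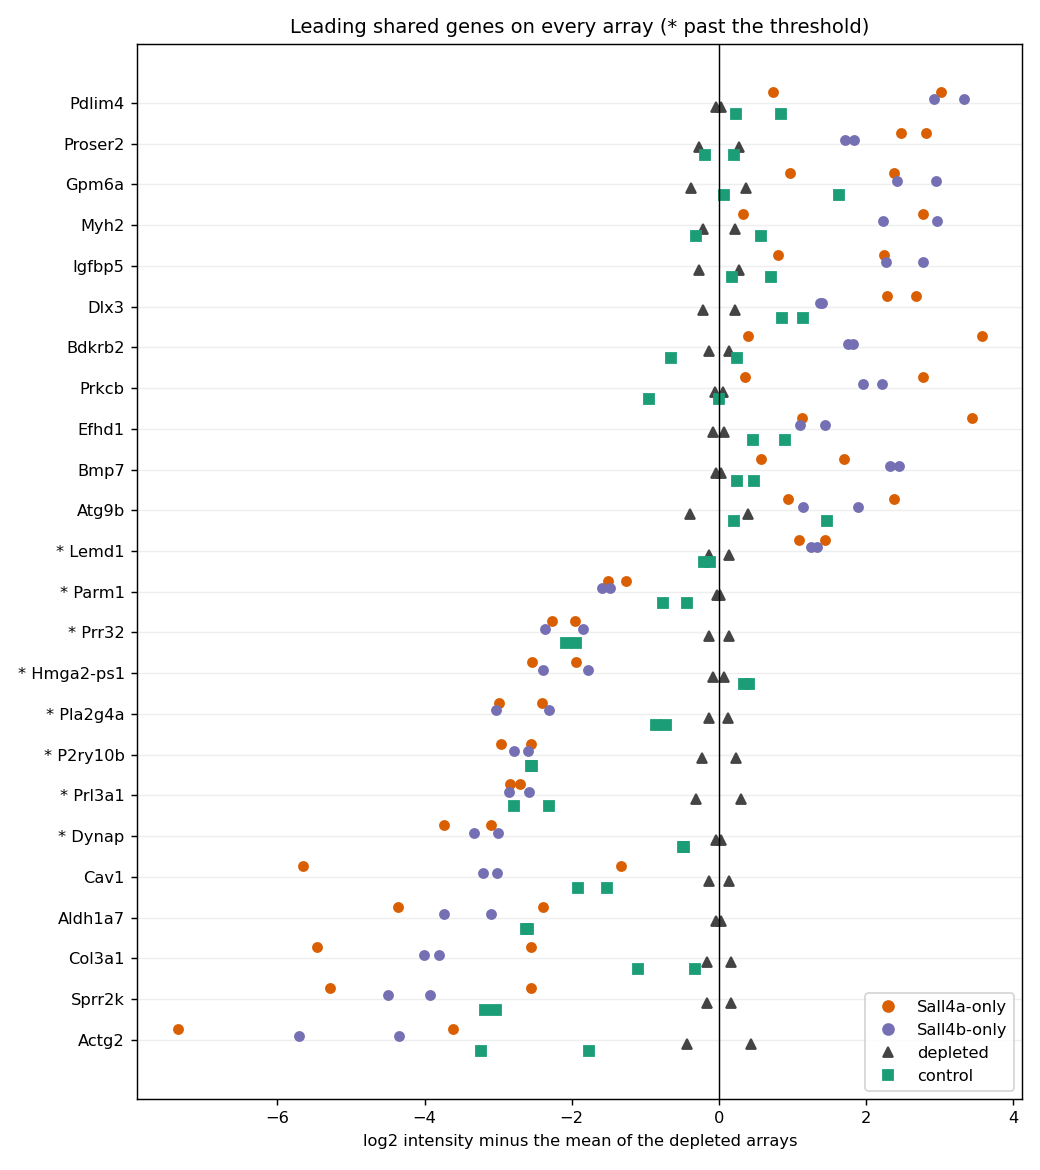
Leading shared genes, with higher genes at the top and lower genes at the bottom, plotted as log2 intensity on each array minus the mean of the 2 depleted arrays (horizontal axis), for Sall4a-only, Sall4b-only, depleted and control cells. Asterisks mark the 8 genes past the threshold. The add-back points of the asterisked genes lie close together, while those of Actg2, Cav1 and Pdlim4 are widely spread. The threshold weighs each difference against this spread, so the contrast follows from how the genes were chosen.

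Whether add-back cells moved toward control or past it was read from the arrays of each shared gene, with no test. The classes past, overlapping and short of control were given only where control and depleted arrays did not overlap. Of the 194 lower genes, add-back arrays overlapped control in 85 (43.8%), all lay past control in 37 (19.1%) and all stopped short of it in 1 (0.515%). In 62 (32%) the control and depleted arrays overlapped, so there was no gap to close, and in 9 (4.64%) control lay on the other side of depleted cells. Genes of the class without a gap could still have every add-back array below control, as did Lox, Thbd and Timp3. The count past control therefore leaves such genes out. Of the 45 higher genes, 27 (60%) had overlapping control and depleted arrays, 9 (20%) overlapped control, 8 (17.8%) lay past it, 0 stopped short and 1 (2.22%) lay away from it. Lemd1, Proser2, Igfbp5 and Bmp4 were among the 27, though every add-back array was above control in each. Among all 946 lower genes without overlap, of any size, 69 (7.29%) lay past control and 38 (4.02%) stopped short, and among the 2056 higher genes 93 (4.52%) lay past control. The comparisons share the depleted and add-back arrays, so these classes are descriptions of single genes and not independent evidence of a return.

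The one shared gene that stopped short was Atp12a, a proton and potassium pump subunit. It read 8.48 and 7.64 in Sall4a-only, 7.69 and 7.83 in Sall4b-only, 8.83 and 9.22 in depleted, and 6.26 and 5.80 in control cells, 37.2% of the gap. The higher genes of the class past control, with control and depleted arrays apart, were Pou3f1, Bst1, Psca, Gchfr, Podxl, Bmp7, Efhd1 and Dlx3. For Bmp7 no depleted or control array had a present call, so its gap and its class rest on values that may be background. Podxl, a sialomucin of the cell surface, read 12.15 and 12.42 in Sall4a-only, 12.44 and 11.44 in Sall4b-only, 10.57 and 10.71 in depleted, and 10.96 and 11.23 in control cells (1.47, adjusted p = 0.216). Pou3f1, a POU-domain factor of the epiblast and nervous system, gave 1.23 (adjusted p = 0.476). The genes that lay away from control were Olr1, Hmga2-ps1, Mmp10, Nav3, Pax3, Krt6a, Gpnmb, Mmp12 and Plac1, all lower, and Dlk1, which was higher.

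**Figure D3:**
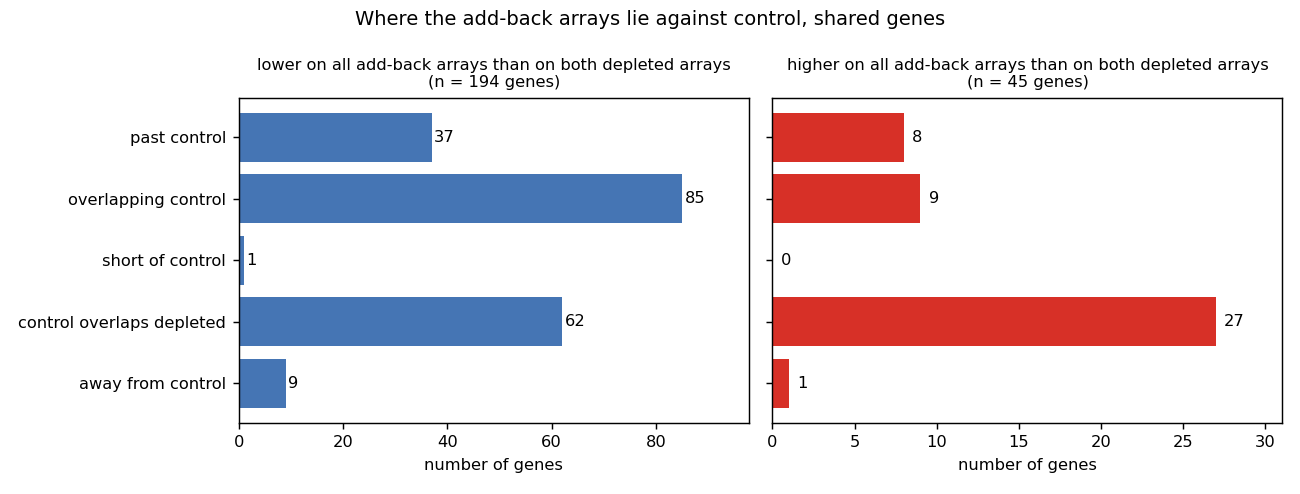
Number of shared genes (horizontal axis) in each position relative to control, for the 194 genes lower (left) and the 45 genes higher (right) on all add-back arrays than on both depleted arrays. Overlap with control is the most frequent class on the left, with 85 genes, and overlap of control with depleted cells on the right, with 27.

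Against control itself, 9 genes passed in add-back cells (0.0642%), 7 lower and 2 higher, and 1903 had an unadjusted p under 0.05. They were Dynap, H3f3b, Hmga2-ps1, Krt6a, Krtap4-16, Lce1d, Lemd1, Mmp12 and Plce1. Mmp12, macrophage elastase, read 4.91 and 5.11 in Sall4a-only, 4.91 and 5.34 in Sall4b-only, 6.27 and 6.11 in depleted, and 8.15 and 8.19 in control cells. No add-back array called it present. It was the gene with the smallest adjusted p against control (−3.11, adjusted p = 0.0011) and did not pass against depleted cells (−1.13, adjusted p = 0.0639). Krt6a, a keratin of stressed squamous epithelium, read 5.77 and 5.79 in Sall4a-only, 6.24 and 5.59 in Sall4b-only, 7.06 and 7.01 in depleted, and 8.42 and 8.81 in control cells (against control −2.77, adjusted p = 0.00802). In both genes the depleted arrays lay between the add-back and the control arrays. Without control replicate 2 no gene passed limma's test against control (1218 had an unadjusted p under 0.05), and without Sall4a-only replicate 2 there were 75.

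Genes of fibroblasts and feeder cells lay lower in add-back cells than in depleted cells. Of 20 tested, 11 (55%) were lower without overlap, against 6.74% of all genes, and 0 were higher, against 14.7%. In 8 (40%) the difference was at least 1 log2 unit, against 1.38% of all genes, and the median was −0.55 against 0.052 over all genes. None passed the threshold. Col5a2, a fibrillar collagen chain, read 7.16 and 8.17 in Sall4a-only, 9.14 and 10.08 in Sall4b-only, 11.97 and 11.74 in depleted, and 10.94 and 10.65 in control cells (−3.22, adjusted p = 0.284). Lox, which cross-links collagen, read 6.95 and 10.62 in Sall4a-only, 8.27 and 8.35 in Sall4b-only, 12.09 and 11.30 in depleted, and 11.66 and 11.23 in control cells (−3.15, adjusted p = 0.424). Both were below control as well. Prrx1 gave −1.84 and S100a4 −1.42. Col1a2 gave −2.34 and Col1a1 −1.37, but −1.29 and −0.73 without Sall4a-only replicate 1, which read 7.02 and 10.06 against at least 10.19 and 12.18 on the other add-back arrays. By array, the median of the list relative to depleted cells was −1.79 and −0.14 in Sall4a-only, −1.19 and −0.36 in Sall4b-only, and −0.26 and −0.56 in control cells, and the pooled median was −0.30 without Sall4a-only replicate 1.

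The summed intensity of 12 fibroblast and feeder markers was 2219 and 18027 in Sall4a-only, 7643 and 10955 in Sall4b-only, 29304 and 24941 in depleted, and 21648 and 15776 in control cells. Of these 12, 6 to 8 were called present on the add-back arrays, 10 and 9 on the depleted arrays and 9 on each control array. Of the 10 tested, 8 were lower without overlap in add-back cells, against 6.74% of all genes, and 0 higher, against 14.7%. All 10 also belong to the fibroblast and feeder list above, so this count repeats part of that one. These markers moved with the lower genes described above, and their part in those differences was not tested. In bulk samples, fewer cells of a type and less RNA per cell cannot be told apart. Sall4a-only replicate 1, with the lowest marker sum, lay furthest from depleted cells in 133 of the 194 lower genes. Sall4a-only replicate 2, with the highest sum of the add-back arrays, lay nearest in 128. The markers Col1a1, Col1a2, Col3a1, Col5a2, Lox and Prrx1 are themselves among the 194 genes, so the sum and these counts are not independent. The median of the 194 genes relative to depleted cells was −2.08 and −1.01 in Sall4a-only and −1.68 and −1.27 in Sall4b-only cells. For the 45 higher genes it was 1.06 and 1.42 in Sall4a-only and 1.29 and 1.32 in Sall4b-only cells.

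Contractile and matrix-remodelling genes had negative medians on 3 of the 4 add-back arrays. Of 18 contractile actin and smooth muscle genes, 5 (27.8%, against 6.74% of all genes) were lower without overlap and 0 higher (against 14.7%). The median was −0.29, or −0.14 without Sall4a-only replicate 1, and control minus depleted was −0.46. By array the median was −0.50 and 0.084 in Sall4a-only and −0.48 and −0.25 in Sall4b-only cells, so Sall4a-only replicate 2 did not lie below depleted cells. Besides Actg2, Lmod1, an actin nucleator of smooth muscle, read 7.54 and 9.99 in Sall4a-only, 7.81 and 8.55 in Sall4b-only, 11.00 and 10.09 in depleted, and 9.02 and 8.22 in control cells (−2.07, adjusted p = 0.479). Tagln2, an actin-binding protein, gave −0.67 (adjusted p = 0.479). Of 12 matrix metalloproteinases and their inhibitors, 5 (41.7%) were lower without overlap and 0 higher, with a median of −0.46 (−0.16 without Sall4a-only replicate 1). Their median by array was −1.30 and 0.013 in Sall4a-only and −0.41 and −0.34 in Sall4b-only cells. Mmp10, stromelysin-2, read 5.95 and 7.28 in Sall4a-only, 6.43 and 5.95 in Sall4b-only, 8.36 and 8.37 in depleted, and 8.99 and 9.11 in control cells (−1.96, adjusted p = 0.2). Timp3, a tissue inhibitor of these proteases, gave −1.63 (adjusted p = 0.44). No gene of either group passed. The fibroblast and feeder marker sum lay between 2219 and 18027 on the add-back arrays against 29304 and 24941 on the depleted arrays. It was 18027 on Sall4a-only replicate 2, where neither list median lay below depleted cells. In control cells it was 21648 and 15776, with contractile medians of −0.48 and −0.39. The part of these markers in the list differences was not tested.

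The imprinted Dlk1-Dio3 region gave the lowest list median, and 1 array decided it. This region expresses non-coding RNAs from the maternal chromosome and Dlk1 from the paternal one. Of 5 genes tested, 3 (60%, against 6.74% of all genes) were lower without overlap and 1 higher, with a median of −1.98, or −0.47 without Sall4a-only replicate 1. Rian read 6.44 and 12.87 in Sall4a-only, 12.50 and 12.16 in Sall4b-only, 13.02 and 12.93 in depleted, and 12.44 and 12.51 in control cells. Meg3 read 6.18 and 11.14 in Sall4a-only, 11.15 and 10.62 in Sall4b-only, 11.64 and 11.95 in depleted, and 10.63 and 10.97 in control cells. Mirg read 4.68 and 9.82 in Sall4a-only, 9.79 and 9.18 in Sall4b-only, 10.57 and 10.89 in depleted, and 9.53 and 9.85 in control cells. In all of these non-coding RNAs Sall4a-only replicate 1 was the array apart, and the other add-back arrays lay near control. Without it the difference was −0.82 for Meg3 and −1.13 for Mirg. Dlk1, a Notch-like surface protein, read 9.42 and 9.04 in Sall4a-only, 8.95 and 10.89 in Sall4b-only, 8.56 and 8.52 in depleted, and 8.42 and 7.43 in control cells (1.03, adjusted p = 0.658).

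Trophoblast and placental genes gave mixed directions apart from Prl3a1. Of 15 trophoblast transcription factors, 3 (20%) were higher without overlap, near the 14.7% of all genes, and 5 (33.3%) were lower, against 6.74%. Their median was −0.25, and none passed. Gata3 read 8.04 and 9.02 in Sall4a-only, 8.53 and 8.94 in Sall4b-only, 9.39 and 9.85 in depleted, and 9.16 and 9.39 in control cells (−0.99, adjusted p = 0.436), whereas Dlx3 was higher. Cdx2, which sets up the trophoblast lineage, read 9.44 and 9.99 in Sall4a-only, 7.96 and 8.40 in Sall4b-only, 8.29 and 8.69 in depleted, and 8.61 and 7.71 in control cells (0.46, adjusted p = 0.858). The Sall4a-only arrays were the 2 highest, but Sall4a-only minus Sall4b-only cells, 1.54, did not pass (adjusted p = 0.641). Eomes gave −0.36 (adjusted p = 0.753) and Tfap2a −0.75 (adjusted p = 0.506). Of 14 placental products and Rhox genes, 1 (7.14%) was higher and 4 (28.6%) lower without overlap (median −0.36), and Prl3a1 was the 1 that passed. Plac8 read 7.99 and 9.98 in Sall4a-only, 8.34 and 9.22 in Sall4b-only, 10.73 and 10.80 in depleted, and 9.67 and 9.49 in control cells (−1.88, adjusted p = 0.404), and Fgfbp1, which binds fibroblast growth factors, gave −0.996 (adjusted p = 0.401). The summed trophoblast markers, 15566 and 11487 in Sall4a-only and 4395 and 5447 in Sall4b-only cells, lay on either side of the 7444 and 7746 in depleted cells. In control cells the sums were 10002 and 10820, below both Sall4a-only arrays and above both Sall4b-only arrays.

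Of 15 squamous and cornified envelope genes, 2 (13.3%) were higher without overlap, near the 14.7% of all genes, and 5 (33.3%) were lower, against 6.74%. The list had a median of 0.11 that changed sign to −0.11 without Sall4a-only replicate 1. Serpinb9b, a protease inhibitor, gave −0.93 and Anxa8, an annexin, −0.91 (adjusted p = 0.407 and 0.479). Relative to control the list lay lower, at −0.66. Of 21 primitive endoderm genes, 20 had a negative difference, as did 5371 of all 14027 genes. In 3 (14.3%, against 6.74% of all genes) it was lower without overlap, and the median was −0.34 (−0.11 without that array). By array the median was −0.92 and −0.33 in Sall4a-only and 0.093 and −0.43 in Sall4b-only cells. The summed primitive endoderm markers were 1733 and 2100 in Sall4a-only, 4758 and 2343 in Sall4b-only, 3102 and 3272 in depleted, and 3677 and 5312 in control cells. Thbd, the thrombin receptor thrombomodulin, read 7.45 and 8.74 in Sall4a-only, 7.60 and 8.17 in Sall4b-only, 10.61 and 9.55 in depleted, and 10.82 and 10.03 in control cells (−2.09, adjusted p = 0.28). Fst, which binds activin, gave −0.84 and Sox7 −0.83 (adjusted p = 0.404 and 0.508). Gata4, at −0.09, and Gata6, at −0.39, are regulators of this lineage, and their add-back arrays overlapped the depleted ones.

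Of 17 signalling genes of the Nodal, Activin and BMP group, 4 (23.5%) were higher and 4 (23.5%) lower without overlap, against 14.7% and 6.74% of all genes. The median was −0.02, and 0.02 without Sall4a-only replicate 1. Bmp4, a ligand of the BMP receptors, read 10.81 and 11.15 in Sall4a-only, 10.76 and 11.09 in Sall4b-only, 8.92 and 10.10 in depleted, and 9.25 and 9.65 in control cells (1.44, adjusted p = 0.28). Bmp7, a related ligand, read 6.55 and 7.68 in Sall4a-only, 8.43 and 8.31 in Sall4b-only, 6.01 and 5.95 in depleted, and 6.46 and 6.23 in control cells (1.76, adjusted p = 0.42). No depleted or control array called Bmp7 present. All 4 add-back arrays were above the other 4 in both ligands. Inhbb, an activin subunit, gave 1.09 (adjusted p = 0.508), and Inhba, the other activin subunit, gave −2.36 with add-back arrays between 4.77 and 9.60 against 10.48 and 9.82 in depleted cells (adjusted p = 0.64), and −1.35 without Sall4a-only replicate 1, the array at 4.77.

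Pluripotency genes differed little. Of 38 tested, 3 (7.89%) were higher and 1 (2.63%) lower without overlap, both below the 14.7% and 6.74% of all genes. In the list, 30 had a positive difference, and the median was 0.10 against 0.052 over all genes, of which 8656 were positive. By array the median relative to depleted cells was 0.24 and −0.14 in Sall4a-only and 0.22 and 0.16 in Sall4b-only cells. Pou5f1, the core factor Oct4, read 13.50 and 13.15 in Sall4a-only, 13.59 and 13.46 in Sall4b-only, 13.31 and 13.25 in depleted, and 13.39 and 12.91 in control cells (0.15, adjusted p = 0.849). Nanog gave 0.12, Sox2 0.06, Klf4 0.16 and Esrrb 0.29, with adjusted p between 0.791 and 0.954. Gbx2, a homeobox gene of the naive state, gave 0.79 (adjusted p = 0.578) and Prdm14, a regulator of that state, gave 0.58 (adjusted p = 0.712). Of 27 G2/M cell cycle genes, 25 had a positive difference and 0 were free of overlap, with a median of 0.086. Their median by array was 0.14 and −0.25 in Sall4a-only and 0.30 and 0.11 in Sall4b-only cells, so Sall4a-only replicate 2 lay the other way. The spindle and checkpoint genes Bub1, Hmmr and Mad2l1 gave 0.29, 0.23 and 0.19. In the SALL family (4 tested, median −0.07), Sall1 gave −0.09 and Sall2 0.14, and no member other than Sall4 was free of overlap. In the 18 other lists the medians lay between −0.17 and 0.18, and 0 genes passed limma's test. Without Sall4a-only replicate 1 these medians lay between −0.18 and 0.29 and changed sign in 5 lists, the highest being that of the Wnt targets and the lowest that of the simple epithelial keratins (0.11 with it).

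**Figure D4:**
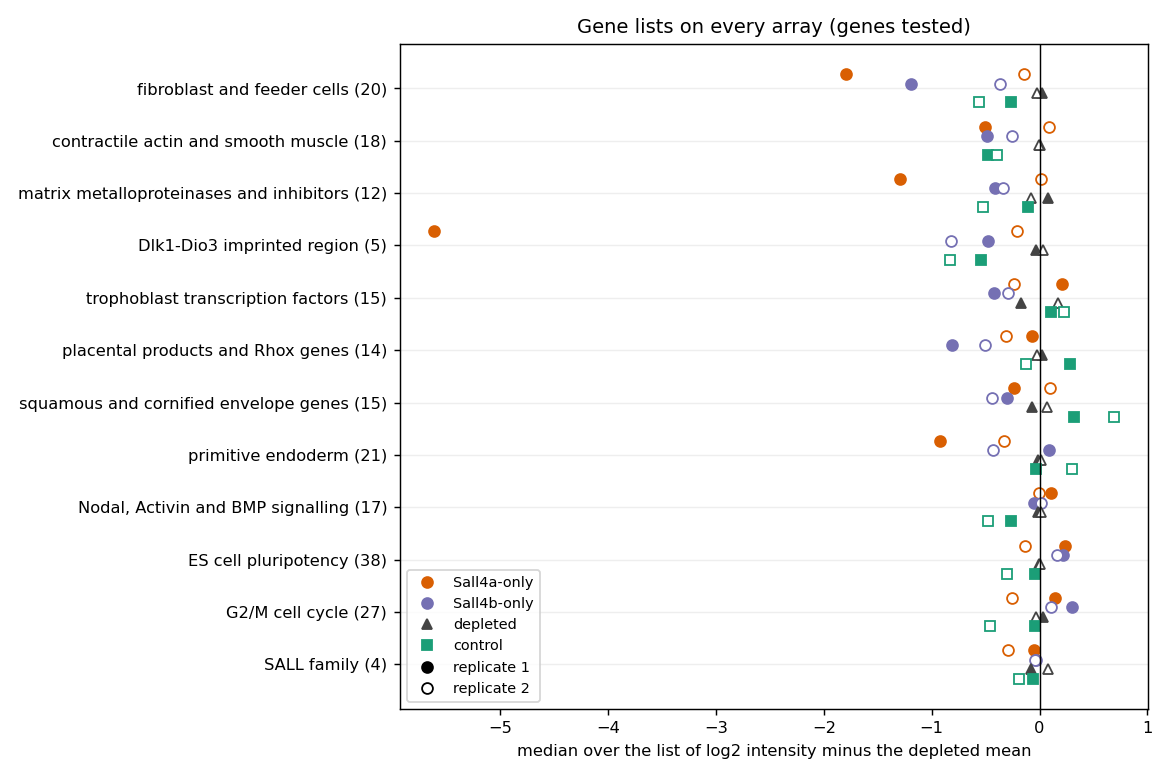
Median over each gene list of log2 intensity minus the mean of the depleted arrays (horizontal axis), for 12 lists with the number of genes tested in brackets, on each Sall4a-only, Sall4b-only, depleted and control array. Filled symbols are replicate 1 and open symbols replicate 2. The fibroblast and feeder list runs from −1.79 to −0.14 on the add-back arrays, and Sall4a-only replicate 1 stands apart in the Dlk1-Dio3 region.

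The isoforms themselves were compared on the same values with 4 group means. No gene passed between Sall4a-only and Sall4b-only cells in limma's test (smallest adjusted p = 0.101, with 820 genes at an unadjusted p under 0.05). Without Sall4a-only replicate 1 there were 2, and without Sall4a-only replicate 2 there were 47. Among the 8 genes past the threshold against depleted cells, Sall4a-only minus Sall4b-only ranged from −0.26 for Dynap to 0.15 for Parm1. Those genes were called with the isoforms pooled, where an isoform difference counts as spread and makes a call less likely. The narrow range thus follows in part from how they were chosen and says nothing about other genes. A p that misses the threshold does not show that the isoforms act alike.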

How the data were processed

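Expression was measured on 8 Affymetrix arrays of CJ7 cells. The authors deposited linear intensities per probe set. RMA, per the submitters' processing notes, made them, and its version is not stated. The 3 deposited tables held identical values. The deposited whole-series table also gives a present, marginal or absent call, by a method that no source used here gives. Intensities ran from 9.71 to 34525 and array medians from 141 to 149.8. The number of arrays limits the precision.

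Of 45101 probe sets, 64 were array controls. GEO's platform annotation gave 1 symbol to 34945 of the rest, several to 932 and none to 9160, and updating by Entrez identifier changed 0. Probe sets called present on at least 2 arrays were kept (31554, with 26080 under 1 symbol). The brightest probe set stood for each gene, giving 14027. Intensities were put on the log2 scale with no pseudocount and no further normalization.

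A limma 3.58.1 model (R 4.3.3, lmFit and eBayes) of 3 means, add-back, depleted and control, was fitted to all 8 arrays, with 5 residual degrees of freedom and 7.21 after moderation, and Benjamini-Hochberg adjustment over all genes. SE is that of the fit. A second fit of 4 means gave the isoform difference. The first fit was tested on simulated data. A fold is a bound where the dimmer group had no present call and the brighter group had 1 or more. The bound sets the bright mean against the dim group's values, each raised to at least the lowest intensity called present.

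The text names Sall4, the top 12 genes in each direction by size (those past the threshold first, then shared genes by size), up to 3 genes of smallest p in each of 12 described lists of 30, and 9 lineage factors always (Gata4, Gata6, Cdx2, Eomes, Esrrb, Klf4, Sox2, Nanog and Pou5f1). Further genes were named after their values were seen. Members and lists were chosen with earlier results of these data known. Replicate numbers were checked as pairs by correlating replicate 2 minus replicate 1 across genes; r ran from −0.12 (Sall4b-only with depleted) through 0.20 (Sall4a-only with Sall4b-only) to 0.57 (depleted with control), so they were not treated as pairs.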

Additional observations from a re-analysis of the deposited data

Results flagged for a closer look

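Among the 63 named genes, 6 had an add-back array far from the other 3, measured as its gap to the nearest array over the range of the 4 (above Dixon's 95% critical value for 4). Chance gives such a flag in about 1 in 20 groups. Sall4a-only replicate 1 was the lowest add-back array for Pdlim4 (9.425, ratio 0.844), Mirg (4.682, ratio 0.877) and Meg3 (6.178, ratio 0.893), and the highest for Inhbb (10.39, a ratio just above that value). Sall4a-only replicate 2 was the highest for Efhd1 (11.90, ratio 0.853) and the lowest for Sox2 (12.19, ratio 0.891). All 6 values are log2 intensities, and all came from the Sall4a-only pair, whose replicates lay furthest apart over all genes.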

How the results depend on the processing

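With 4 add-back and 2 depleted arrays, the counts of genes past the threshold depended on single arrays and on the variance model. For add-back against depleted cells (8 in the report), fitting the isoforms as separate means gave 2, the compared groups alone 5, array weights 233 (78 higher, 155 lower), every probe set 13 and quantile normalization 20 (2 higher, 18 lower). Against control (9), the compared groups alone gave 4. For control minus depleted (2), separate means, the compared groups alone and array weights gave 0, a trended and robust prior 7, and log2(intensity + 16) 4. Leaving out 1 array at a time gave 0 to 86 against depleted cells, 0 to 75 against control, 0 to 3 for control minus depleted, 0 to 47 between isoforms, and 232 to 378 shared genes (239 in the report, and 422 as probe sets). With settings chosen after seeing the data, leaving out both Sall4a-only arrays gave 66, 121 and 0 in the order of the comparisons above and 373 shared genes, and leaving out both Sall4b-only arrays gave 0, 1 and 0 and 362 shared genes.

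With the replicate number as a block the counts were 11 against depleted cells, 7 against control, 4 for control minus depleted and 0 between isoforms. With the Sall4b-only numbers crossed in that block they were 3, 6 and 0.

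Over 1194 settings of the 63 named genes, 1098 kept the direction and the side of the threshold, 39 passed where the report's value did not, 47 lost the call and 10 changed sign, the last all in genes that never passed in the report. Over the fits without 1 array, Sox2 ran from −0.009857 (without depleted replicate 1; −0.009149 without Sall4a-only replicate 1) to 0.211, and was −0.07186 without both Sall4b-only arrays. Gata4 ran from −0.3428 to 0.04685 (without Sall4a-only replicate 2; 0.03424 without Sall4b-only replicate 2) and was 0.09122 without both Sall4a-only arrays. Sall1 ran from −0.1936 to 0.02118 (without depleted replicate 1, with 0.0149 without Sall4a-only replicate 2), Sall2 from −0.08185 (without depleted replicate 1) to 0.3713, and Cdx2 was −0.3106 without both Sall4a-only arrays. The cause was not tested. The adjusted p ranged from 0.000406 to 0.128 for Dynap, which passed in 17 of 19 alternatives, and from 0.00337 to 0.403 for Lemd1, which passed in 9 of 19.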

Other observations

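Secreted factors were among the shared genes in both directions. They were picked after their values were seen, and none passed the threshold. Wnt5a, a ligand of non-canonical Wnt signalling, read 6.91 and 8.17 log2 units in Sall4a-only, 7.17 and 6.98 in Sall4b-only, 10.02 and 9.98 in depleted, and 9.54 and 9.40 in control cells (−2.69, adjusted p = 0.0612), so all add-back arrays lay past control. Bdnf, a neurotrophin, read 7.73 and 10.22 in Sall4a-only, 8.50 and 8.94 in Sall4b-only, 11.16 and 10.77 in depleted, and 10.33 and 10.39 in control cells (−2.12, adjusted p = 0.424). Csf1, the macrophage growth factor, gave −2.16, Tgfb3 −2.14, Edn1, which encodes endothelin, −1.64, and Tgfb2 −1.30. The higher ones were the netrin gene Ntn1 (1.52), Fgf17 (1.40) and Kitl (1.02), the ligand of the Kit receptor. The fibroblast and feeder marker sum ran with the lower factors, between 2219 and 18027 on the add-back arrays against 29304 and 24941 on the depleted arrays, and its part was not tested.

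Some enzymes of retinol and aldehyde metabolism were picked from the lower shared genes in the same way, so their common direction follows from the choice, and none passed. Aldh1a1, which makes retinoic acid, read 4.78 and 5.81 in Sall4a-only, 5.14 and 5.25 in Sall4b-only, 7.56 and 7.42 in depleted, and 5.99 and 5.85 in control cells (−2.24, adjusted p = 0.0513), 143% of the gap to control. Adh1, an alcohol dehydrogenase, gave −1.70 (adjusted p = 0.436), and the aldo-keto reductases Akr1cl and Akr1c14 gave −2.47 and −1.56 (adjusted p = 0.436 and 0.478). Akr1c14 add-back arrays ran from 5.71 to 7.78, against 8.17 and 8.58 in depleted and 5.72 and 5.67 in control cells. The fibroblast and feeder marker sum named above was lower on the same arrays, and its part was not tested here either.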
